A study of Sus scrofa with 30 samples.

Results

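Antibody transfer into colostrum and milk was followed through 8 genes named for this work. They are PIGR, JCHAIN, FCGRT, CCL28, CCR10, CCL25, MADCAM1 and MZB1. Every transcript of these genes in the deposited table was taken, with identifiers matched to symbols through the RefSeq annotation of Sscrofa11.1. The table held 15 such transcripts among 61773, which belonged to 7 of the 8 genes and to 7 of the 14913 genes with a reference transcript. CCR10 (chr12:20157627-20159518 in that annotation), the receptor for CCL28, was not analysed here.

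The sow placenta lets almost no antibody through to the fetus, and the piglet depends on colostrum for its first IgG and on later milk for IgA. PIGR, the polymeric immunoglobulin receptor, carries IgA and IgM across the mammary epithelial cell and is released into milk with its cargo, while the joining chain JCHAIN gives these polymers the shape that PIGR binds. FCGRT is the heavy chain of the neonatal Fc receptor for IgG and pairs with B2M. CCL28 is an epithelial chemokine that draws antibody-secreting cells bearing CCR10, CCL25 and MADCAM1 guide lymphocytes mainly to the gut, and MZB1 is an endoplasmic reticulum protein of plasma cells and B cells that aids antibody assembly.

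The samples were mammary parenchyma of multiparous Danish Landrace × Yorkshire half-sib sows, all of 1 breed cross, taken at 5 stages with 6 samples in each. These were mid-gestation (MG, gestation day 70), late gestation (LG, gestation day 110), early lactation (EL, 2 days after farrowing), peak lactation (PL, 10 days after farrowing) and early involution (W2, 2 days past weaning). In every stage 3 of the 6 samples differed from each other by at most 1.85% (median over transcripts of at least 10 units) and their mean lay within 0.741% of the mean of the other 3, whose pairs differed by at least 11.4%. Only the other 3 samples were counted, so n = 3 per stage and 15 in all. Samples titled EL carried the stage name mid-gestation in a further label field and those titled MG carried early lactation. The titles were followed here. The summed units of 6 milk protein and milk secretion genes ran from 11884 to 29210 in MG and from 62416 to 90947 in EL. An exchange of these stage names would turn the sign of EL vs MG and exchange the partners of every other comparison with MG or EL.

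Values are given in the units of the deposited table, which correct for transcript length and add up to almost the same total in every sample, so levels may be set beside each other between genes. A gene sum adds the reference transcripts of a gene. Differences are log2 fold changes of (units + 0.5) with their standard errors, and a gene was past the test at an adjusted p below 0.05 (limma). No read counts were used, and the precision of a value therefore rests on the spread of 3 samples and not on its depth. PL replicate 2 stood apart, with 20.1% of its units in the 6 milk genes against 0.578 to 9.11% in the other samples. In PL the median gene averaging at least 5 units stood 0.71 lower than in MG on the log2 scale, and in W2 it stood 0.81 higher than in PL. Scaling by the median ratio of 2698 well expressed transcripts brought these medians to -0.07 and 0.11, and PL replicate 2 had the lowest of the 15 scaling factors, 0.567.

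Antibody genes were among the most abundant and among the rarest of the gland. JCHAIN was the highest member in each stage, at rank 93 to 164 of 14913 genes by stage mean. PIGR stood at rank 143 in PL and rank 837 in W2. CCL28 was at rank 294 to 483, FCGRT at 814 to 1018 and MZB1 at 3080 to 6035. MADCAM1 lay at rank 11157 to 12165 and CCL25 at rank 13594 to 13676.

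**Figure D1:**
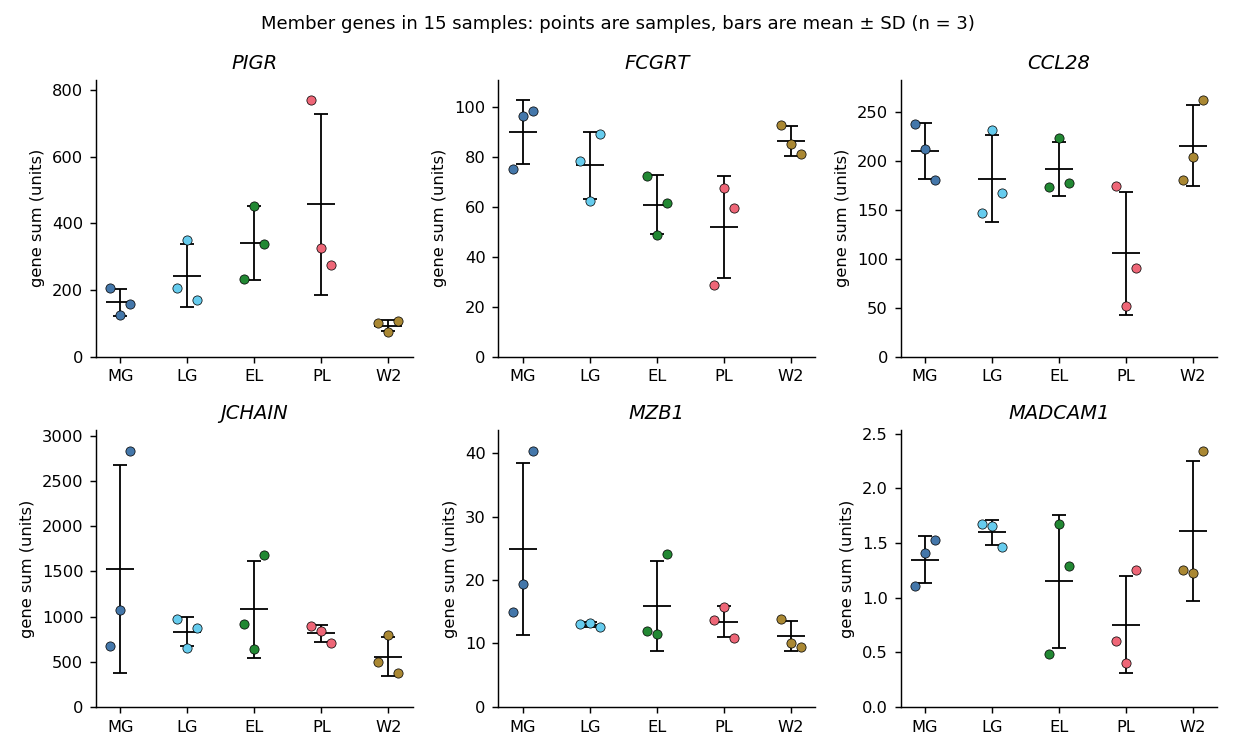
Gene sums in units (vertical axes, from 0) of 6 member genes in the 5 stages, with 1 point per counted sample and bars for the mean ± SD (n = 3). PIGR was lowest in W2, where its 3 samples lay between 73.1 and 106 units, and CCL28 was lowest on average in PL at 106 units.

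Of the 7 measured genes, PIGR, FCGRT and CCL28 were past the test in at least 1 of the 10 pairwise comparisons of stages, where 47% of all genes were. By transcript it was 2 of 15, one each of PIGR and FCGRT, where 7.97% of all transcripts were. PIGR alone differed among the 5 stages in a single F test over all stages (adjusted p = 0.0086), as did 27.1% of all genes. The share of members called was therefore near that of the whole table, and the description below turns on direction and level.

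PIGR (chr9:67553094-67574698) was the member that rose into lactation and was lowest after weaning. Its level was 206, 124 and 158 units in MG, and 207, 350 and 170 units in LG. It reached 233, 453 and 337 units in EL and 770, 327 and 275 units in PL. In W2 it was 99.4, 73.1 and 106 units. Every W2 sample lay below every sample of the other stages, PL and EL lay entirely above MG, and PL overlapped EL and LG. Of all genes, 2.09% lay wholly higher in EL than in MG. W2 lay wholly below MG, LG and EL in 2.23, 2.34 and 2.31% of genes. The means were 163 ± 41.2 units in MG, 457 ± 272 in PL and 92.8 ± 17.4 in W2 (SD, n = 3).

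PIGR fell by 2.16 ± 0.39 on the log2 scale from PL to W2 (SE, adjusted p = 0.0013), which took it to 0.224 of its peak level. In that comparison 42.8% of all genes were past the test, 2.63% as lower and 40.2% as higher in W2, so PIGR moved against most of the table. Groups did not overlap, with W2 lower, in 3.23% of genes and, with W2 higher, in 48%. Under median ratio scaling the same fall was 2.89 on the log2 scale (adjusted p = 0.0023), with 7.13% of genes lower and 10.7% higher, and without PL replicate 2 it was 1.71 (adjusted p = 0.0032). PIGR rose from MG to PL by 1.36 ± 0.39 (adjusted p = 0.018), where 35.3% of genes were past the test, 2.4% as higher and 32.9% as lower, and PL lay wholly above MG in 3.16% of genes and wholly below in 44.2%. That rise was 2.03 under median ratio scaling (adjusted p = 0.017), where 6.75% of genes were higher and 8.87% lower. It was 0.91 without PL replicate 2 (adjusted p = 0.066) and 1.18 without MG replicate 3 (adjusted p = 0.073).

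PIGR in W2 was also below EL, by -1.84 ± 0.39 (adjusted p = 0.048), where 1.03% of genes were past the test, 0.241% as lower in W2. This call was lost in 17 of the 25 alternative settings, with adjusted p up to 0.196. These included leaving out EL replicate 4 or 6 or any single sample of MG, LG or W2. The difference of EL from MG was 1.04 ± 0.39 (adjusted p = 0.21) and that of PL from EL was 0.32 ± 0.39 (adjusted p = 0.67), which without PL replicate 2 became -0.13. Neighbouring stages from MG to PL were therefore not told apart in PIGR. Among MG, LG, EL and W2, the comparison of W2 with EL was the only one in which any gene was past the test by limma on gene sums, and the other 5 had 0%. An unadjusted p below 0.05 was reached by 5.17 and 19.5% of genes in LG vs MG and EL vs MG and by 5.91% in EL vs LG. It was reached by 2.84 and 8.83% in W2 against MG and against LG. The members with such a p numbered 1, 1 and 0 in the first 3 of these comparisons and 2 and 1 in the last 2.

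The receptor's signal came from 1 transcript. XM_021102216.1 made up 99.4% of PIGR units and between 98.4 and 99.9% in any sample, and NM_214159.1 the remaining 0.552%. XM_021102216.1 alone fell from PL to W2 by 2.16 on the log2 scale (adjusted p = 0.0067 over all transcripts, of which 7.13% were past the test) and was the only member transcript with both a call and a log2 fold change of at least 2, as 2.84% of transcripts were. NM_214159.1 lay between 0.212 and 4.78 units.

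PIGR was also set against the epithelium that makes it. The 6 epithelial markers (EPCAM, CDH1, KRT8, KRT18, KRT19 and CLDN4) added up to 1165 to 1598 units in MG, LG and EL, 843 to 1857 in PL and 1444 to 2085 in W2. Per 100 units of these markers, PIGR was at 7.77 to 13.1 in MG, 12.2 to 22.7 in LG and 17.8 to 32.7 in EL. It was at 16.9 to 91.3 in PL and 4.25 to 6.89 in W2. W2 thus lay below every other sample on this scale as well. In tissue pieces such as these, fewer cells of a type and less RNA per cell cannot be told apart.

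The genes whose pattern over the 15 samples was most like that of PIGR were milk and defence genes. Pearson's r on the log2 scale was 0.96 with CSN2 (beta-casein), 0.95 with CSN3 (kappa-casein) and 0.94 with PGLYRP1, a secreted protein that binds bacterial peptidoglycan, among 8150 genes averaging at least 5 units. With CSN2 the value was 0.97 over the 12 samples outside PL and 0.96 without PL replicate 2. CSN2 itself was 98647 units in PL replicate 2, the sample with the highest PIGR, and 1405 units in W2 replicate 3, the sample with the lowest. All points share their library and its scaling, and after quantile normalization none of these 3 genes was among the 3 most like PIGR, while 2 of them were under median ratio scaling.

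**Figure D2:**
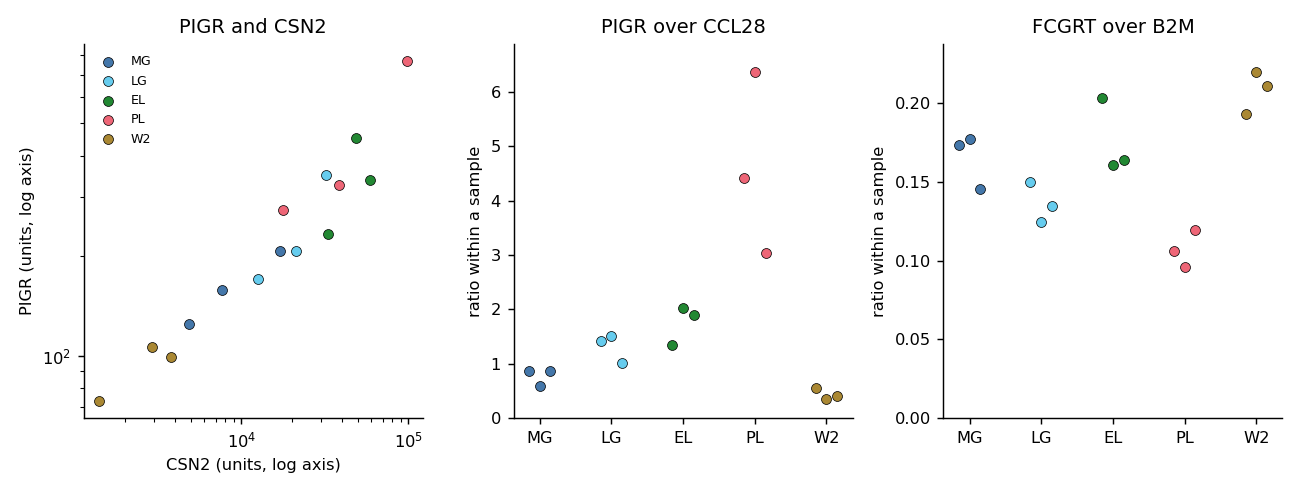
Left, PIGR against CSN2 in units on log axes, 1 point per counted sample, coloured by stage. Middle and right, ratios of gene sums within a sample (PIGR over CCL28 and FCGRT over B2M, axes from 0) by stage: PL has the highest PIGR over CCL28 (3.03 to 6.37) and the lowest FCGRT over B2M (0.0959 to 0.119).

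FCGRT (chr6:54581103-54599193) ran the other way and was lowest on average in PL. It was 75.2, 96.4 and 98.4 units in MG, and 78.3, 62.4 and 89.4 units in LG. In EL it was 72.4, 48.8 and 61.6 units, in PL 28.7, 67.5 and 59.7 units, and in W2 93.0, 85.2 and 81.4 units. PL lay entirely below MG and below W2, and overlapped EL and LG. PL lay wholly below MG in 44.2% of all genes and wholly below W2 in 48%.

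FCGRT fell from MG to PL by 0.87 on the log2 scale (SE 0.28, adjusted p = 0.029) and rose from PL to W2 by 0.82 ± 0.28 (adjusted p = 0.031). In the first of these comparisons 32.9% of all genes fell, and in the second 40.2% rose. Both comparisons share the PL samples, and both differences are close to those of the median gene. Under median ratio scaling they were -0.20 (adjusted p = 0.48) and 0.09 (adjusted p = 0.76). Without PL replicate 2, which had the lowest FCGRT, they were -0.49 (adjusted p = 0.076) and 0.44 (adjusted p = 0.094). The fall from MG was also lost without MG replicate 3 or 6 (adjusted p = 0.089 and 0.085), and the rise to W2 without any 1 of the W2 samples (adjusted p = 0.059 to 0.079). Over the 15 samples FCGRT and PIGR ran in opposite directions as deposited, with r = -0.87, and -0.84 without PL replicate 2. Their correlation was not computed after rescaling, where the FCGRT differences above were small. The genes most like FCGRT were MAN2B1, a lysosomal mannosidase, ITM2C and FJX1, each with r = 0.98. Under median ratio scaling 1 of them, ITM2C, stayed among the 3 most like FCGRT, with r = 0.89.

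A ratio of genes within a sample does not depend on the scaling between samples. FCGRT over B2M, its light chain partner, was 0.146 to 0.177 in MG, 0.125 to 0.150 in LG and 0.161 to 0.203 in EL. It was 0.0959 to 0.119 in PL, below every other sample, and 0.193 to 0.220 in W2, where 2 of the 3 samples were above every sample of the other stages. B2M was not past the test in any comparison as deposited, but fell from PL to W2 under median ratio scaling. It was 434 to 674 units in MG and 269 to 704 units in PL. Its PL vs MG difference was -0.25 ± 0.28 (adjusted p = 0.52) as deposited and 0.42 ± 0.21 (adjusted p = 0.198) under that scaling, where it was also higher in PL than in EL, by 0.75 (adjusted p = 0.044).

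FCGRT was the member with the most transcripts, all 7 of the annotation. NM_214197.2 made up 59.9% of its units, with 38.1 to 90.3% in single samples, and XM_013998635.2 made up 26.2%, with 5.03 to 55.5%. The division of reads between such overlapping transcripts is an estimate of the authors' quantification, so transcript levels are less certain than the gene sum.

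NM_214197.2 was 67.9, 40.6 and 74.5 units in MG, and 37.4, 38.5 and 37.7 units in LG. It was 57.3, 34.4 and 32.8 units in EL, 17.7, 25.9 and 22.7 units in PL, and 54.9, 62.9 and 52.7 units in W2. PL lay below every other sample. The transcript fell from MG to PL by 1.41 on the log2 scale (SE 0.27, adjusted p = 0.012, with 4.28% of transcripts past the test) and rose from PL to W2 by 1.35 ± 0.27 (adjusted p = 0.012). Both calls were kept without PL replicate 2 (adjusted p = 0.028 and 0.029). Under median ratio scaling the differences were -0.75 (adjusted p = 0.16) and 0.63 (adjusted p = 0.23).

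XM_013998635.2 was 11.0, 37.5 and 29.2 units in PL and 8.61, 15.3 and 12.7 units in W2. These stages overlapped in it. XM_013998636.2 was 17.3, 7.03 and 10.9 units in W2 and at most 9.12 units in any other sample, and its W2 vs PL difference of 3.50 ± 1.15 was not past the test (adjusted p = 0.087). The other 4 transcripts were listed at 0 in between 7 and 13 of the 15 samples.

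**Figure D3:**
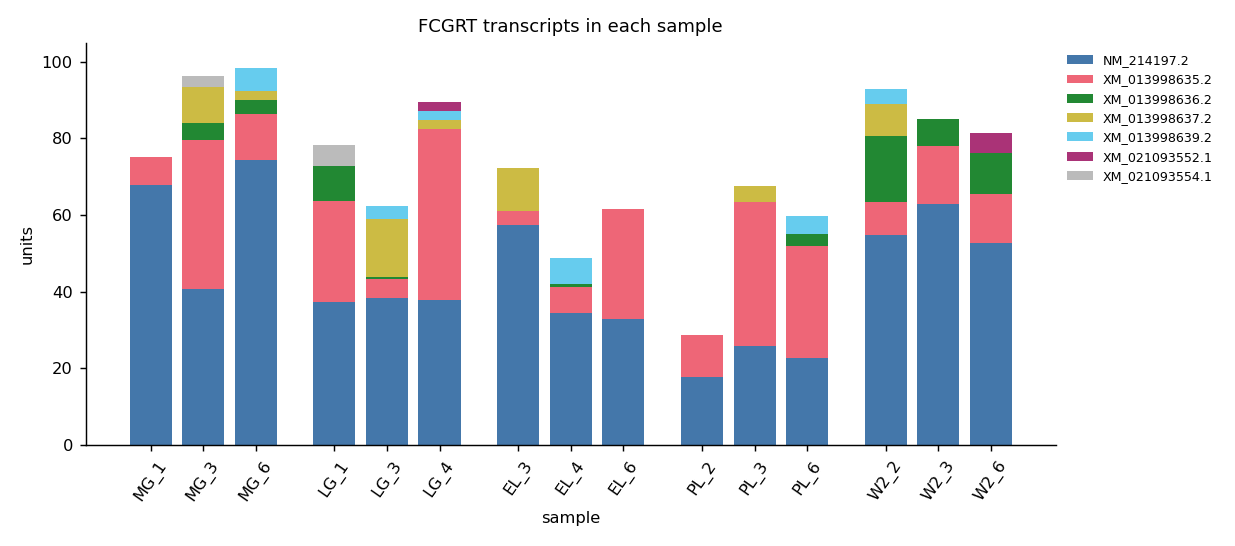
Units of the 7 FCGRT transcripts (stacked bars from 0) in each of the 15 counted samples, grouped by stage. The lowest segment is NM_214197.2, which stays at or below 25.9 units in the 3 PL samples and above 32 units in all others.

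CCL28 (chr16:27990024-28010859, NM_001024695.1) was steady from gestation to early lactation and lower at peak lactation. It was 238, 212 and 180 units in MG, 146, 232 and 168 units in LG and 174, 224 and 178 units in EL. In PL it was 175, 51.3 and 90.8 units and in W2 181, 205 and 262 units. The PL samples lay below MG and W2 in full, but PL replicate 2, at 175 units, lay within the range of EL and LG. Of all genes, 44.2% lay wholly lower in PL than in MG and 48% wholly higher in W2 than in PL.

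CCL28 fell from MG to PL by 1.16 on the log2 scale (SE 0.34, adjusted p = 0.021) and rose from PL to W2 by 1.19 ± 0.34 (adjusted p = 0.016). From MG to PL 32.9% of all genes fell, and from PL to W2 40.2% rose. PL vs LG (-0.93 ± 0.34, adjusted p = 0.069, with 21.7% of genes past the test) and PL vs EL (-1.02 ± 0.34, adjusted p = 0.092, with 7.29% past it) missed the threshold. Without PL replicate 2 all these differences grew, to -1.61 against MG (adjusted p = 0.0013), -1.38 against LG (adjusted p = 0.0046), -1.47 against EL (adjusted p = 0.0043) and 1.64 for W2 vs PL (adjusted p = 0.00099). Without PL replicate 3 the difference from MG was -0.73 (adjusted p = 0.060), and this call was also lost without MG replicate 1 or 3 (adjusted p = 0.062 and 0.061). The rise to W2 lost its call without W2 replicate 6 (1.04, adjusted p = 0.060). Under median ratio scaling, which divides PL replicate 2 by the smallest factor, PL vs MG was -0.49 (adjusted p = 0.51) and W2 vs PL 0.46 (adjusted p = 0.51). The genes most like CCL28 over the 15 samples were FAM221A (r = 0.95), SUSD5 and ARMT1 (r = 0.93 each), and 2 of the 3 stayed under median ratio scaling.

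The ratio of the receptor to the chemokine within a sample differed between stages. Over the 15 samples the levels of PIGR and CCL28 were only weakly opposed, with r = -0.26. PIGR over CCL28 was 0.585 to 0.876 in MG, 1.02 to 1.51 in LG and 1.34 to 2.02 in EL. It was 3.03 to 6.37 in PL and 0.357 to 0.550 in W2. PL lay above and W2 below every other sample, and LG and EL lay between MG and PL. PIGR over FCGRT was 0.858 to 1.30 in W2, 1.29 to 2.74 in MG and 4.61 to 26.8 in PL, and here PL overlapped EL, at 3.22 to 9.28, and LG, at 1.91 to 5.61.

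**Figure D4:**
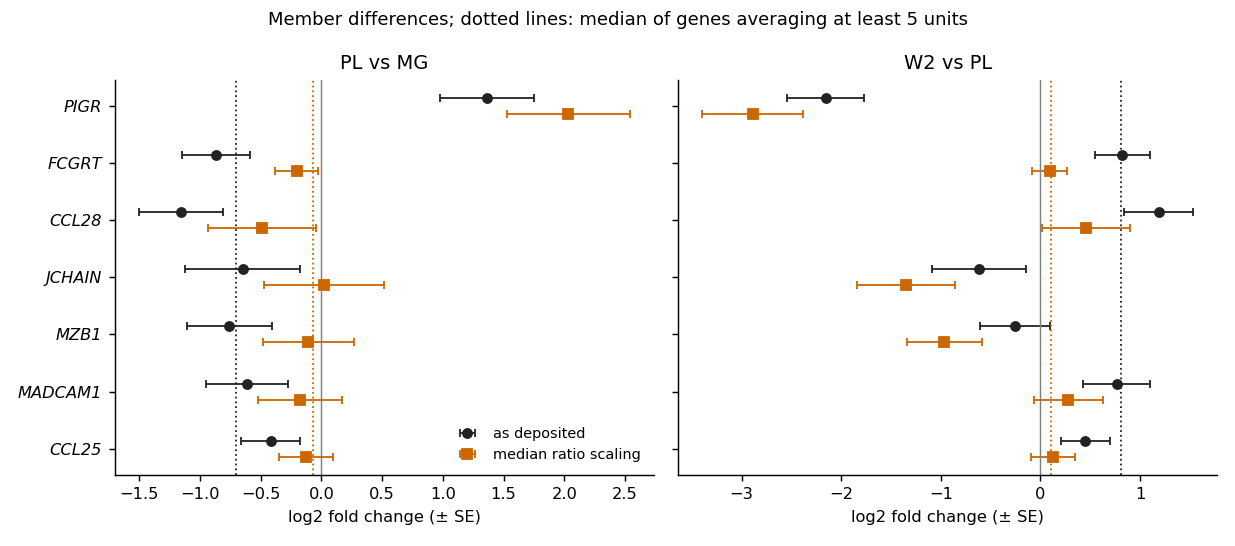
Log2 fold changes with their SE (horizontal axes) of 7 member genes in PL vs MG and W2 vs PL, as deposited (black circles) and under median ratio scaling (orange squares), with dotted lines at the median of genes averaging at least 5 units. PIGR keeps its direction on both scales, while FCGRT lies near the median gene, at -0.87 and 0.82 as deposited and -0.20 and 0.09 after scaling.

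The plasma cell members JCHAIN and MZB1 were not past the test in any comparison, and their spread between sows of a stage was widest in MG. JCHAIN (chr8:67439405-67448628, XM_003356961.3) was 670, 1076 and 2838 units in MG, and 969, 654 and 872 units in LG. In EL it was 922, 636 and 1679 units, in PL 891, 842 and 710 units, and in W2 494, 795 and 375 units. W2 had the lowest mean, 554 ± 216 units (SD, n = 3), but overlapped every other stage.

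MZB1 (chr2:141277541-141279652, XM_003123981.3) was 15.0, 19.4 and 40.4 units in MG, and 13.1, 13.3 and 12.5 units in LG. It was 12.0, 11.6 and 24.1 units in EL, 13.7, 15.7 and 10.8 units in PL, and 13.8, 10.1 and 9.51 units in W2. All MG samples lay above all LG and W2 samples. Of all genes, 14.9% lay wholly lower in LG than in MG and 2.23% wholly lower in W2 than in MG. W2 vs MG was -1.02 ± 0.35 for MZB1 (unadjusted p = 0.013, adjusted p = 1) and -1.27 ± 0.47 for JCHAIN (unadjusted p = 0.020, adjusted p = 1). JCHAIN in W2 vs PL was -0.62 ± 0.47 (adjusted p = 0.31) as deposited and -1.35 (adjusted p = 0.078) under median ratio scaling, and PL vs MG went from -0.65 to 0.02. Without MG replicate 1 the PL vs MG difference of MZB1, -0.76 with all samples, was -1.05 and past the test (adjusted p = 0.046), while under median ratio scaling with all samples it was -0.11 (adjusted p = 0.89).

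The same samples were high in both genes. MG replicate 6 was highest and EL replicate 6 next highest for JCHAIN and for MZB1 alike. Their correlation over the 15 samples was r = 0.86, and 0.51 without these 2 samples. The gene most like each of them was LOC110258827, annotated as a transcribed pseudogene, with r = 0.93 for JCHAIN and 0.90 for MZB1, and LOC110258384, a variable segment gene, was among the 3 most like both (r = 0.87 and 0.89). LOC100152327 was the other for JCHAIN (r = 0.87), and JCHAIN itself for MZB1. JCHAIN over MZB1 stayed within 35.7 to 78.7 in all samples.

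Genes of immune receptor segments followed them. The annotation table marks variable segments and constant regions but does not say to which receptor they belong, so that T cell receptor segments may be included. This set was formed after the files had been seen and also takes in LOC396781, whose synonym is IGHG. Of 138 such genes 59 were in the table. Their summed units were 623, 1317 and 2286 in MG, 417 to 731 in LG, 409 to 876 in EL, 560 to 1066 in PL and 310 to 601 in W2. MG replicate 6 was again highest, and the sum correlated with JCHAIN at r = 0.88, and at 0.82 without both high samples.

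Of the 59 segment genes 10 were past the test in at least 1 comparison, where 47% of all genes were. In PL vs MG 1 rose and 4 fell, where 2.4% of all genes rose and 32.9% fell. LOC102167789, the 1 that rose, was at most 3.14 units in any sample. Under median ratio scaling 1 rose and none fell, where 6.75% of all genes rose and 8.87% fell. In W2 vs PL 3 fell and none rose, where 2.63% of all genes fell and 40.2% rose. The median difference of the 59 was -0.47 where that of all genes was 0.71. With scaling by the median ratio 5 fell there and none rose, where 7.13% of all genes fell and 10.7% rose. As deposited the 3 lowered genes were LOC100736878, LOC110258329 and LOC110258664. LOC100736878, a variable segment gene on chromosome 3, was 75.8, 50.4 and 15.5 units in PL and was listed at 0 in all W2 samples and in 4 of the 9 samples of MG, LG and EL. LOC110258664 was 32.7, 20.7 and 20.9 units in PL and 10.5, 3.83 and 1.43 units in W2. LOC396781 was 31.1, 165 and 36.1 units in PL and 60.0, 97.6 and 40.6 units in W2, without a call. Segment genes resemble each other closely, so reads may have been divided between them.

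**Figure D5:**
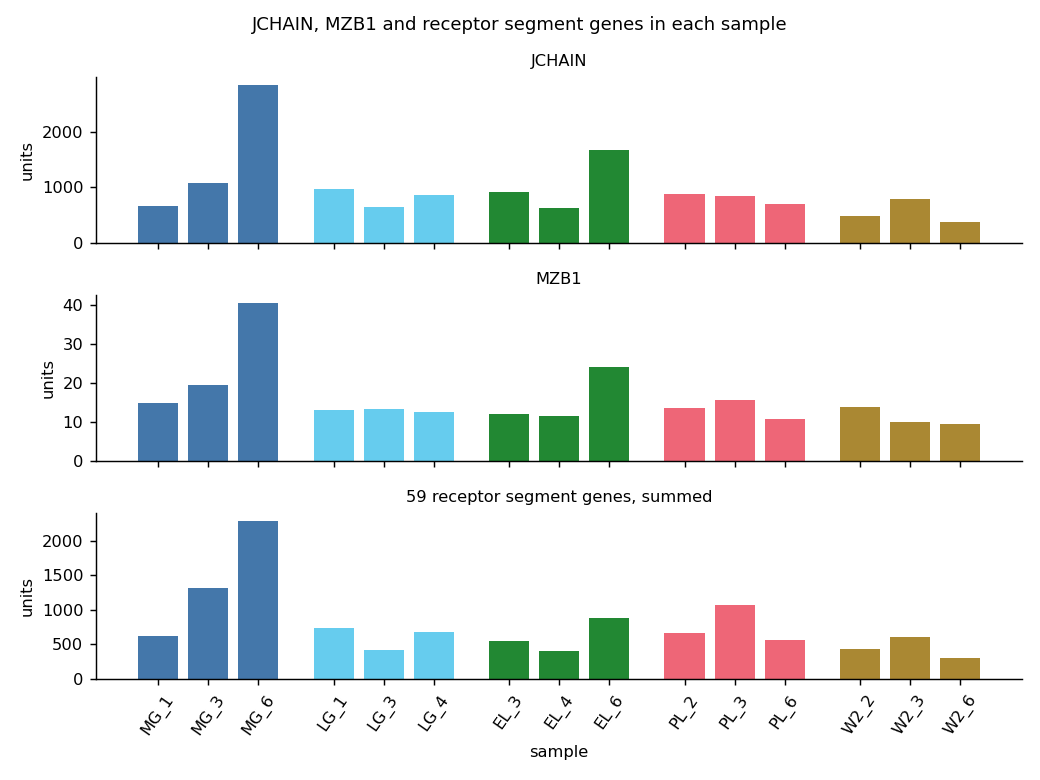
Units (bars from 0) of JCHAIN, MZB1 and the sum of 59 receptor segment genes in each of the 15 counted samples, coloured by stage. MG replicate 6 is the highest sample in all 3 panels, at 2838, 40.4 and 2286 units.

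CCL25 and MADCAM1, the gut-homing signals, were the members with the lowest levels. CCL25 (chr2:71175066-71206950) had 1 of its 4 annotated transcripts in the table, XM_021081930.1, at 0.143 to 0.753 units, and no difference was past the test. Its PL vs MG difference of -0.42 became 0.27 after quantile normalization. MADCAM1 (chr2:77784610-77789036) was 1.11, 1.41 and 1.52 units in MG, 1.67, 1.66 and 1.47 in LG, 0.484, 1.68 and 1.29 in EL, 0.602, 0.405 and 1.25 in PL and 1.25, 1.22 and 2.35 in W2. PL vs LG was -0.80 ± 0.34 (adjusted p = 0.10) and W2 vs PL 0.77 ± 0.34 (adjusted p = 0.083), and without PL replicate 6 both were past the test (adjusted p = 0.044 and 0.031). After quantile normalization they were -0.27 (adjusted p = 0.66) and 0.067 (adjusted p = 0.92). NM_001037998.1 was above 0 in 4 samples and XM_021081941.1 in 12, and only 1 sample had both. The genes most like MADCAM1 were APOE (r = 0.89), PRTFDC1 (r = 0.88) and PTP4A3 (r = 0.84). None of these was among the 3 most like it after quantile normalization, and APOE fell to r = 0.75 under median ratio scaling.

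Other genes of antibody transfer were read from lists by role. Their counts stand beside 2.4% of all genes higher and 32.9% lower in PL vs MG, and 40.2% higher and 2.63% lower in W2 vs PL. For calls under median ratio scaling, 6.75% of all genes were higher and 8.87% lower in PL vs MG. In W2 vs PL 10.7% were higher and 7.13% lower on that scale. Of the receptor partners and other Fc receptors 7 of 11 were measured. FCGR2B, FCGR3A, FCER1G and FCRLA, which serve in immune cells, fell from MG to PL and rose from PL to W2, with medians over the list of -1.30 and 1.10 against -0.62 and 0.71 for all genes. FCGR3A was 63.8, 85.8 and 84.6 units in MG, 15.6, 23.4 and 20.2 in PL and 60.6, 68.5 and 64.5 in W2, and it fell from MG to PL by 1.96 on the log2 scale (SE 0.20, adjusted p = 7.8e-05). With median ratio scaling FCGR2B, FCGR3A and FCRLA fell from MG to PL, FCGR3A and FCRLA rose from PL to W2, and B2M fell there (by 0.87 on the log2 scale, adjusted p = 0.013).

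Among the homing partners 9 of 14 were measured, without CCR9 and ITGA4. From MG to PL 6 of the 9 fell and none rose, where 32.9% of all genes fell, and from PL to W2 CXCL12, CXCR4, CXCL13 and VCAM1 rose and ICAM1 fell, where 40.2% of genes rose and 2.63% fell. CCR6, among those that fell from MG to PL, was at most 0.722 units in any sample. CXCR4, the receptor through which CXCL12 retains plasma cells and many other leukocytes, was 89.1, 169 and 101 units in MG, 4.16, 13.2 and 14.6 in PL and 137, 164 and 121 in W2. Its W2 vs PL difference was 3.82 ± 0.55 (adjusted p = 0.00038). ITGB7, the beta chain of the MADCAM1 receptor, was 4.85 ± 2.0 units in MG and 2.17 ± 0.69 in PL (SD, n = 3), and it fell by 0.97 on the log2 scale (adjusted p = 0.024). Only CXCR4 and CXCL13 fell from MG to PL and rose from PL to W2 under median ratio scaling.

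The transcytosis list held genes of endosomal transport and membrane sorting, chosen for the route that PIGR takes, and all 12 were measured. None rose and 5 fell from MG to PL, where 32.9% of all genes fell, and 8 rose and none fell from PL to W2, where 40.2% rose, with a median of 0.66 against 0.71 for all genes. RAB25 was 35.8 ± 7.0 units in PL and 73.4 ± 0.98 in W2 (SD, n = 3), a difference of 1.04 ± 0.21 (adjusted p = 0.0022). AP1M2, the epithelial adaptor subunit, was 56.1 ± 7.4 units in PL and 106 ± 6.8 in W2. RAB3D, known to take part in the transport of polymeric IgA, was 45.6 ± 13 units in PL and 32.6 ± 3.5 in W2, without a call. After the same scaling RAB11FIP5 alone rose and RAB3D alone fell from PL to W2, so the direction of this list depends on the scaling.

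Of the plasma cell and B cell list 21 genes were measured, and MS4A1 and PAX5, which mark B cells, were not analysed here. From MG to PL TNFSF13 rose, and PRDM1, CD79B (at most 1.45 units in any sample) and CD38 fell. From PL to W2 PRDM1 and SDC1 rose, and DERL3 and TNFSF13 fell. PRDM1, a master regulator of plasma cells that epithelia also express, was 3.57 ± 0.33 units in MG, 1.19 ± 0.40 in PL and 3.86 ± 2.1 in W2. TNFSF13, the plasma cell survival factor APRIL, was 30.3 ± 18 units in PL and 9.97 ± 3.8 in W2, and it fell by 1.46 on the log2 scale (adjusted p = 0.029). XBP1 was 498 ± 197 units in PL and 1044 ± 270 in EL, with no call (adjusted p = 0.075). It is used by any secretory cell, the milk-making epithelium included. By median ratio scaling DERL3, SEC11C and TNFSF13 rose from MG to PL and fell from PL to W2, and no other gene of the list was past the test there.

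Of 14 regulators linked to PIGR transcription 13 were measured, without PRLR. IRF1, USF2 and NR3C1 fell from MG to PL and rose from PL to W2, and NFKB1 rose from MG to PL. NFKB1 was low, at 0.370 to 1.48 units in MG and 1.01 to 5.25 in PL, and these stages overlapped in it. IRF1, the interferon-induced factor known to act on PIGR, was 34.9 ± 5.4 units in MG, 18.7 ± 11 in PL and 35.6 ± 2.3 in W2. Its MG and W2 samples overlapped, and PL replicate 3, at 30.6 units, lay within the MG range of 29.2 to 40.0. The part of IRF1 in the level of PIGR was not tested. NR3C1, the glucocorticoid receptor, was 17.1 ± 2.8, 11.0 ± 1.9 and 19.8 ± 2.0 units in the same stages. Scaled by the median ratio, STAT6, NFKB1, TNFRSF1A and TLR4 rose from MG to PL and fell from PL to W2, and no other of the 13 was past the test in these comparisons.

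Markers of other cells in the gland were read in the same comparisons. Beside their counts stand 2.4% of all genes higher and 32.9% lower in PL vs MG. In W2 vs PL 40.2% of all genes were higher and 2.63% lower. Under median ratio scaling these shares were 6.75 and 8.87% in PL vs MG, and 10.7 and 7.13% in W2 vs PL. The summed units of 5 T cell markers were 27.8 to 32.3 in MG, 6.59 to 19.0 in PL and 23.8 to 28.5 in W2, and 4 of them fell from MG to PL and all 5 rose from PL to W2 as deposited and none did under median ratio scaling. Of 5 fibroblast markers 4 fell from MG to PL and rose from PL to W2, and under median ratio scaling 1 did in each. The 4 measured macrophage markers added up to 52.4 to 66.4 units in MG and 32.3 to 314 in PL, where CD14 rose and CSF1R and AIF1 fell. From PL to W2 CSF1R, CD163 and AIF1 rose and CD14 fell. The calls of CD14 and CSF1R in both comparisons were also made under median ratio scaling, and the others were not. Of the milk secretion genes CSN2, CSN3, LALBA and WAP rose from MG to PL, and these and CSN1S1 fell from PL to W2. All these calls were also made under median ratio scaling, where CSN1S1 rose from MG to PL too. Of 4 measured endothelial markers KDR and ERG fell from MG to PL and VWF, KDR and ERG rose from PL to W2, of which the fall of KDR was the only call under median ratio scaling. Of 3 measured adipocyte markers LEP rose and FABP4 fell from MG to PL, with the reverse from PL to W2, and the calls of LEP alone were also made under that scaling. The 6 epithelial markers had 1 call, a rise of CDH1 in W2 vs PL. The part of these cells in the levels of JCHAIN, MZB1 and the Fc receptors was not tested.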

How the data were processed

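The authors trimmed the reads with Trimmomatic, mapped them to the Sscrofa11.1 genome by HISAT2, and used StringTie for transcript assembly and quantification. The values deposited by the authors as FPKM were taken as TPM, since every sample totals 997480 to 1002643. Whether they include the authors' correction for unwanted variation is not given in the sources used here. Samples were grouped by title. The 3 near-identical samples per stage were left out.

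Gene sums covered 32688 transcripts. log2(value + 0.5) was fitted with limma 3.58.1 in R 4.3.3, with trended variance, 5 stages in 1 fit, 10 comparisons and Benjamini-Hochberg adjustment over all features. An exact two-sided permutation test of 3 against 3 samples cannot go below p = 0.1 and was not used. The procedure was tested on simulated data. The members and gene lists were chosen with earlier results of these data known. Named were all member transcripts, list genes past the test, B2M, XBP1, PRDM1 and the 3 genes most like each member. Alternatives were other pseudocounts, a filter on low values, quantile normalization, median ratio scaling, variance without a trend, the replicate number as a block, compared stages alone, near-identical samples counted once, all 6 samples, and each sample left out in turn. No sequence of the members was read.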

Additional observations from a re-analysis of the deposited data

How the results depend on the processing

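As deposited, 2 member transcripts, 3 member genes and 30 genes of the 5 lists by role (Fc receptors, homing, transcytosis, plasma cell and B cell, and PIGR regulators) were past the test in at least 1 comparison, and 1 member gene differed among the stages. Under quantile normalization and under median ratio scaling these numbers were 1, 1, 18 and 1. With the compared stages alone they were 0, 1 and 10, and the test among the 5 stages could not be run. With the near-identical samples counted once they were 6, 7, 45 and 5, and with all 6 samples 11, 7, 58 and 6. The added samples or their mean lie near the mean of the counted 3, which narrows the spread of a stage without further replication. The counts of these settings are therefore not comparable with the others, and calls gained there enter the totals below. Leaving out 1 sample at a time gave 2 to 3, 3 to 4, 27 to 33 and 1 to 2. The 5 lists held 7, 9, 12, 21 and 13 measured genes, in the order above. As deposited, 7.97% of all transcripts and 47% of all genes were past the test in at least 1 comparison. Among the stages 27.1% of all genes differed. These shares over all features were not computed for the other settings.

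Among the single differences recomputed, 800 kept their direction and side of the threshold, 55 lost a call, 39 gained one and 4 turned sign: PIGR PL vs EL without PL replicate 2 (-0.13, with the other left-out samples up to 0.61), JCHAIN PL vs MG under median ratio scaling (0.021), and CCL25 PL vs MG (0.27) and W2 vs PL (-0.36) under quantile normalization. None of these 4 was called. The cause was not tested.

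Sows were slaughtered for sampling, so a replicate number cannot link samples of the same sow across stages. The deviations of 19 same-numbered pairs correlated between -0.13 and 0.14, and those of 71 differently numbered pairs between -0.13 and 0.23. With the replicate number as a block, 2 transcripts, 2 member genes and 28 list genes were past the test, and PIGR W2 vs PL kept its call (adjusted p = 0.0047).

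Read counts were not analysed here, so counting error was not estimated, and low transcripts such as CCL25 and MADCAM1 are least certain.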
